A study of Homo sapiens with 8 samples.

Results

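The genes described here encode 10 tissue-type regulators of alternative splicing, ESRP1, ESRP2, RBFOX2, MBNL1, MBNL2, MBNL3, CELF1, QKI, PTBP1 and PTBP3. They were chosen by name, with earlier results of these data known. Every listed RefSeq transcript of these genes was taken. These were 39 of 24293 transcripts that could be paired with a gene symbol, from 10 of 14528 named genes. SQ20B, an established human line from a head and neck squamous cell carcinoma, was kept in normoxia or in 0.5% oxygen for 16 h, with 4 replicates of each condition. Polyadenylated RNA was sequenced, and the deposited table gives 1 FPKM value (a fragment count scaled by transcript length and by library size) per transcript and condition. The table pools the replicates, so the values below have no spread, no test of hypoxia against normoxia was possible, and an order of levels or changes cannot be tested. Read counts of single samples were not analysed here, and the table does not give the number of reads behind a value.

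Regulators of this class bind short sequence words in pre-mRNA and switch exons in or out according to cell type. ESRP proteins maintain splicing patterns of epithelial cells, RBFOX, MBNL and CELF proteins control exon programmes of muscle, brain and differentiating cells, QKI acts in glia and in mesenchymal transition, and PTBP proteins repress exons used in neurons and muscle. The position of binding decides the outcome for several of them: RBFOX and MBNL proteins tend to favour an exon from the downstream intron and to repress it from the upstream side.

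The changes below are log2((hypoxia FPKM + 0.1)/(normoxia FPKM + 0.1)), where FPKM is summed over the listed transcripts of a gene unless a transcript is named, and the added 0.1 lowers the change of weakly expressed transcripts. A gene or transcript was counted as changed when it differed by at least 1.5-fold and its mean FPKM over the conditions was at least 0.5. All 8 genes of a hypoxia response list passed this limit upward, with log2 changes from 1.02 for VEGFA to 5.58 for NDRG1. Of 11 epithelial genes 10 were listed, from OVOL1 at 1.46 and 2.48 FPKM to KRT18 at 829 and 489, among them the basal keratin gene KRT5 (398 FPKM in normoxia and 442 in hypoxia), the surface adhesion gene EPCAM (317 and 233) and the adherens junction gene CDH1 (61.1 and 82.6). The mesenchymal repressor gene ZEB1 stood at 0.1 FPKM in normoxia and 0.0311 in hypoxia and the intermediate filament gene VIM at 0.576 and 1.04, while the transcription factor gene SNAI2 stood at 31.2 and 28.9. Of the mesenchymal list, 5 of 8 genes were above the limit and 2 had changed, the matrix gene FN1 (7.69 and 24.7 FPKM) and VIM, both upward. Beside SNAI2, CDH2 (9.21 and 9.96) and TWIST1 (5.71 and 5.61) were above the limit and did not pass 1.5-fold. Of the 10 listed epithelial genes, 4 had a log2 change above 0 and 6 below, with a median of -0.24. Past the limit, the transcription factor gene OVOL1 rose (0.72) and the simple keratin gene KRT18 fell (-0.76). The list summed to 2073 FPKM in normoxia and 1651 in hypoxia, beside 54.7 and 70.7 for the mesenchymal list. KRT18 made up most of the first difference, and FN1 was the largest in the second. The summed FPKM of all entries was also lower in hypoxia, 458431 beside 536005. Of 5 neuronal markers 3 were listed, summing to 5.12 and 5.97 FPKM, and of 5 muscle markers 1 was listed, TTN, which rose from 0.380 to 0.645 FPKM (0.63). The part of these differences in the results on the splicing regulators was not tested.

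None of the 10 splicing regulators differed by 1.5-fold in either direction. Among all 12106 genes above the limit, 9.95% were higher in hypoxia by at least 1.5-fold and 11.2% were lower. The log2 changes ran from -0.26 for MBNL1 to 0.55 for RBFOX2, with 4 genes above 0 and 6 below, and their median was -0.05 beside -0.07 for all genes above the limit. The summed FPKM of the 10 genes was 369 in normoxia and 380 in hypoxia. With both FPKM columns brought to the same total (equal sums), the median of all genes moved from -0.07 to 0.15, and 9 of the 10 genes then lay above 0, MBNL1 being the exception, while 18.6% of all genes were higher by at least 1.5-fold and 4.99% lower. The direction of a small change in these data thus depended on the scaling, whereas ratios between genes of the same condition are unaffected by a common factor.

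**Figure D1:**
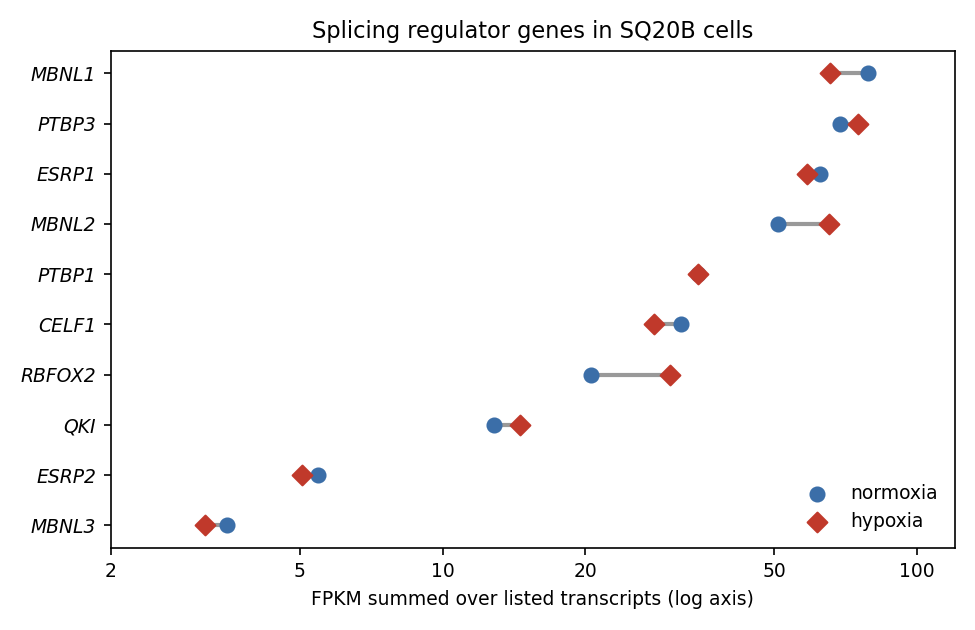
FPKM of each splicing regulator gene, summed over its listed transcripts, on a log axis, with circles for normoxia and diamonds for hypoxia (1 pooled value per condition, no error available). RBFOX2 shows the widest gap, 20.5 to 30.1 FPKM, and PTBP1 the narrowest, 34.6 to 34.5 FPKM.

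Levels spanned a wide range, and FPKM allows them to be compared between genes because it is scaled by length. MBNL1 was the most abundant by mean FPKM (72.2), followed by PTBP3 (71.9), ESRP1 (60.4), MBNL2 (58.0), PTBP1 (34.6), CELF1 (29.9), RBFOX2 (25.3), QKI (13.7), ESRP2 (5.27) and MBNL3 (3.34). The median of these means was 32.2 FPKM against 9.23 for all genes above the limit. MBNL1 lay at percentile 89.9 of all genes by level, ESRP2 at 37.7 and MBNL3 at 28.8.

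**Figure D2:**
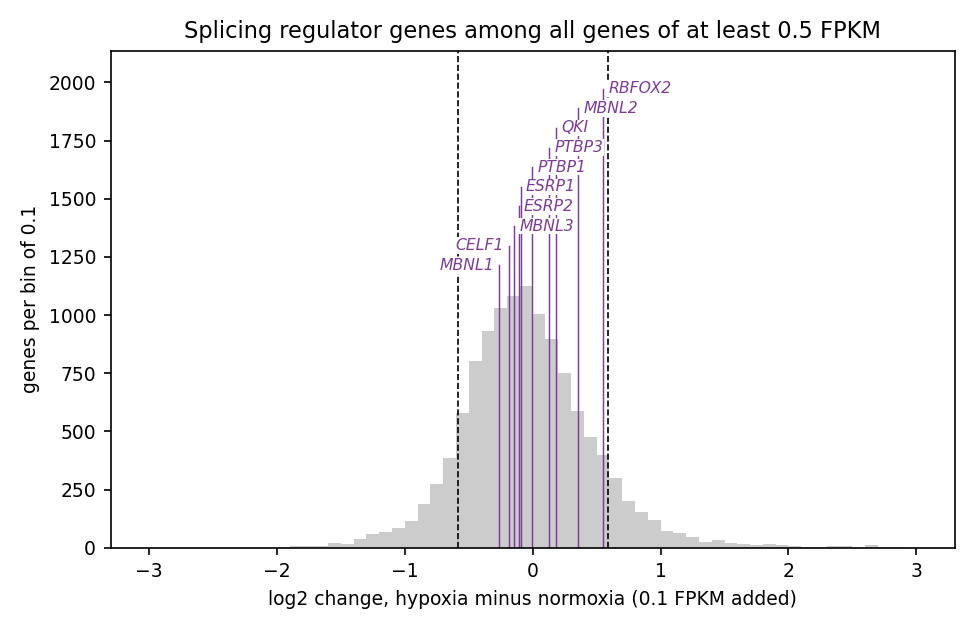
Histogram of the log2 change of all 12106 genes above the 0.5 FPKM limit, in bins of 0.1 (genes beyond 3 on either side are not drawn), with the 10 splicing regulators as vertical lines and the 1.5-fold limits dashed. All 10 lines fall between the dashed limits, RBFOX2 (0.55) being closest to one.

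ESRP1 and ESRP2 are the epithelial splicing regulatory proteins, whose loss accompanies epithelial-mesenchymal transition. ESRP1 (chromosome 8 of hg19, 95653302 to 95719694, plus strand, as are all coordinates here in GENCODE v44 mapped to GRCh37) stood at 62.4 and 58.5 FPKM (normoxia, then hypoxia) with a log2 change of -0.09. ESRP2 (chromosome 16, 68262936 to 68272005, minus strand) stood at 5.47 and 5.07 FPKM, a log2 change of -0.11. With equal sums both values turned positive, to 0.13 for ESRP1 and 0.11 for ESRP2, and that of ESRP1 also with quantile normalization (0.02). ESRP1 was the main ESRP mRNA in this line, at 11.4 times the FPKM of ESRP2 in normoxia and 11.5 times in hypoxia. The table listed 5 ESRP1 transcripts, and their shares of the gene hardly moved: NM_017697 held 50.4% in normoxia and 51.8% in hypoxia, and NM_001122825 held 28.5% and 27.9%. The transcript of ESRP1 with the largest log2 change was NM_001034915 (-0.56), from 3.20 to 2.13 FPKM, which is below 1.5-fold.

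RBFOX2, the RBFOX family protein of epithelial and mesenchymal cells that recognises the word GCATG (written as DNA), had the largest log2 change of the 10 genes. RBFOX2 (chromosome 22, 36134783 to 36424872, minus strand) stood at 20.5 FPKM in normoxia and 30.1 in hypoxia. The log2 change of 0.55 is a 1.46-fold difference, just under the limit, and lies at percentile 88.9 among all genes. The change passed 1.5-fold with median centring, with equal sums and with quantile normalization. Against ESRP1, the ratio of RBFOX2 FPKM was 0.329 in normoxia and 0.515 in hypoxia.

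The difference in RBFOX2 came from 2 of its 5 listed transcripts. NM_014309 rose from 5.29 to 11.1 FPKM (log2 change 1.06), and NM_001082579 rose from 2.94 to 6.78 FPKM (log2 change 1.18). Their joint share of the gene went from 40.1% to 59.5%. The other RBFOX2 transcripts summed to 12.3 FPKM in normoxia and 12.2 in hypoxia. Within that nearly constant sum, NM_001082578 fell from 1.85 to 0.430 FPKM (log2 change -1.88, 3.69-fold lower), while NM_001082577 stood at 4.31 and 5.89 FPKM and NM_001082576 at 6.15 and 5.89. NM_001082576 was the most abundant RBFOX2 transcript in normoxia, with 29.9% of the gene, and held 19.6% in hypoxia, where NM_014309 led with 37.0%. The change of NM_001082578 was -0.997 with 1 FPKM added in place of 0.1, because its level in hypoxia lies close to the amount added.

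**Figure D3:**
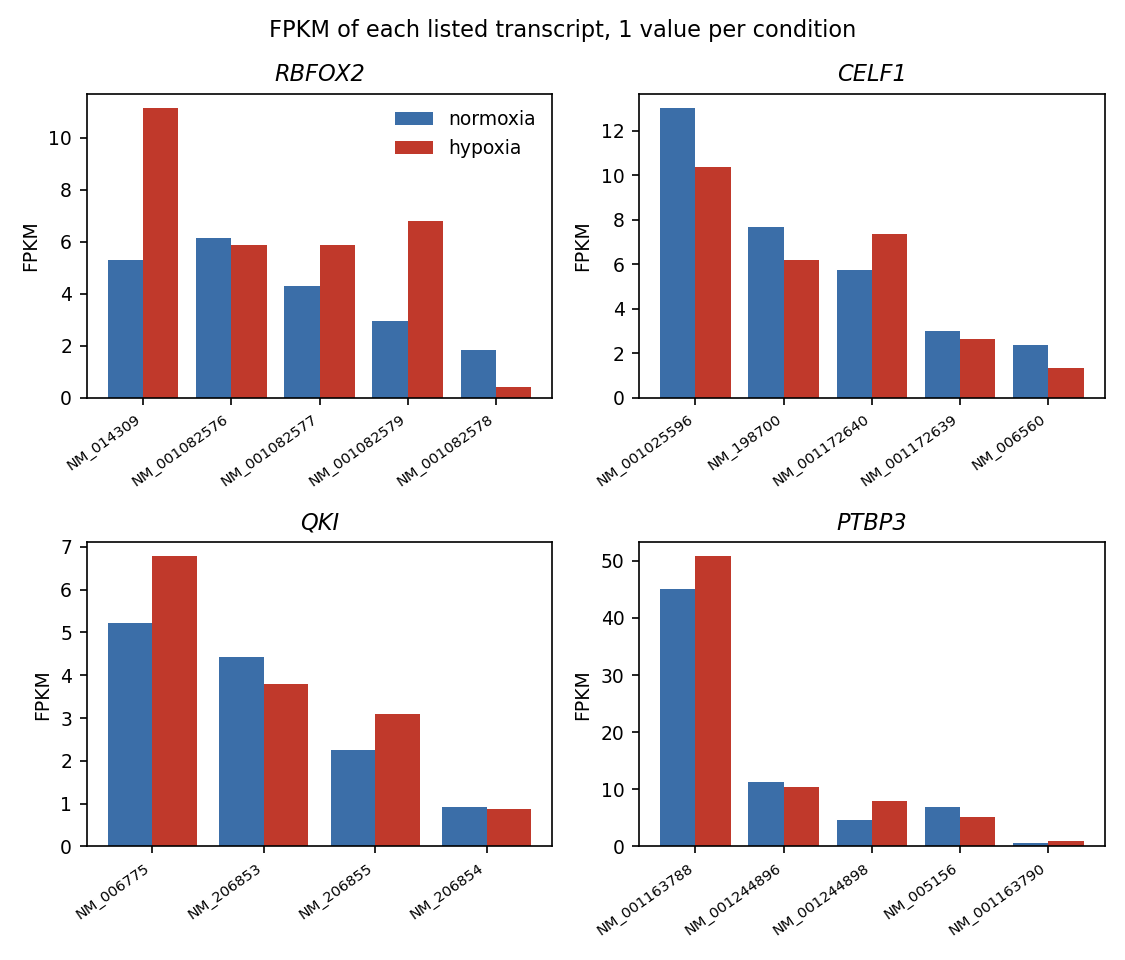
FPKM of every listed transcript of RBFOX2, CELF1, QKI and PTBP3 (bars from 0; 1 pooled value per condition, so no error bars), with a separate axis for each gene. In RBFOX2, NM_014309 and NM_001082579 are more than 2 times as high in hypoxia and NM_001082578 is the lowest; in the other genes the order of the leading transcript is kept.

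Shares were compared for the 9 genes that had more than 1 listed transcript. RBFOX2 was the only one of them in which a share moved by at least 10 percentage points (11.2 points for NM_014309). Among all 5125 genes above the limit with more than 1 listed transcript, 14.1% had such a change, and the median of the largest change per gene was 3.10 points. Next came QKI with 8.27 points and CELF1 also with 8.27, at percentile 80.5 and 80.4 of those genes, and the other 6 lay between 1.47 points for ESRP1 and 4.49 for MBNL2. Transcripts of a gene share most of their exons, so the split of fragments between them is an estimate by Cufflinks, and its uncertainty is not given with these values.

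At the level of single transcripts, 36 of the 39 had a mean FPKM of at least 0.5, and 5 of them were higher and 2 lower by at least 1.5-fold. Of all 18190 transcripts above the limit, 10.5% were higher and 14.3% were lower. The 5 higher transcripts were NM_014309 and NM_001082579 of RBFOX2, NM_207294 of MBNL1, and NM_001244898 and NM_001163790 of PTBP3. The 2 lower ones were NM_001082578 of RBFOX2 and NM_006560 of CELF1. The 3 transcripts below the FPKM limit were NM_207296 of MBNL1 and NM_133486 and NM_001170702 of MBNL3.

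**Figure D4:**
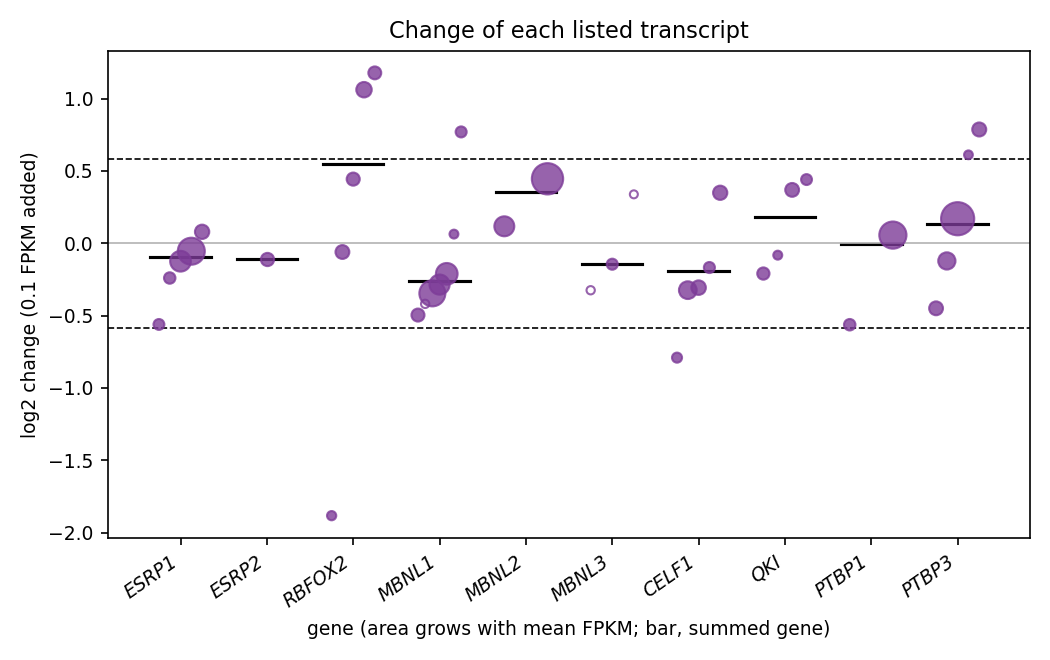
Log2 change, hypoxia minus normoxia, of each listed transcript (circles, area growing with mean FPKM, open where the mean FPKM is below 0.5) and of the summed gene (black bars), with the 1.5-fold limits dashed. RBFOX2 has the widest spread among its transcripts, from -1.88 to 1.18. ESRP1 and MBNL2 transcripts lie within the dashed limits.

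The MBNL proteins are muscleblind-like regulators that bind YGCY words and that are sequestered by expanded CUG repeats in myotonic dystrophy. MBNL1 (chromosome 3, 151961617 to 152183569, plus strand) stood at 78.7 and 65.6 FPKM (normoxia, then hypoxia) with a log2 change of -0.26, which was -0.04 with equal sums and -0.15 with quantile normalization. MBNL2 (chromosome 13, 97873688 to 98046374, plus strand) stood at 50.8 and 65.1 FPKM, a log2 change of 0.36, which was 0.58 with equal sums and 0.53 with quantile normalization. MBNL3 (chromosome X, 131503348 to 131623996, minus strand) stood at 3.51 and 3.16 FPKM, a log2 change of -0.15 that became 0.07 with equal sums. The opposite differences of MBNL1 and MBNL2 nearly cancelled: the 3 genes summed to 133.1 FPKM in normoxia and 133.9 in hypoxia, and the ratio of MBNL2 to MBNL1 went from 0.646 to 0.992. Of the 7 MBNL1 transcripts, NM_207293, NM_207295 and NM_207297 together held 88.4% of the gene in normoxia and 86.5% in hypoxia, and each was lower in hypoxia, with log2 changes from -0.35 to -0.21. A minor MBNL1 transcript went the other way, NM_207294, which rose from 2.03 to 3.53 FPKM (log2 change 0.77). In MBNL2, NM_207304 went from 35.9 to 49.0 FPKM and from 70.7% to 75.2% of the gene, while NM_144778 stood at 14.9 and 16.2 FPKM. Most of the difference in MBNL2 thus lay in 1 of its 2 listed transcripts.

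CELF1, which binds GU-rich words and often opposes MBNL proteins at the same exons, stood at 31.8 FPKM in normoxia and 27.9 in hypoxia (chromosome 11, 47487485 to 47587121, minus strand). Its log2 change was -0.19, and it became 0.04 with equal sums. The ratio of summed MBNL to CELF1 FPKM was 4.18 in normoxia and 4.80 in hypoxia. Of the 5 CELF1 transcripts, 4 were lower and summed to 26.1 and 20.6 FPKM, and 1 was higher, NM_001172640, from 5.75 to 7.35 FPKM. The share of NM_001172640 went from 18.1% to 26.3% of the gene. The only CELF1 transcript past the limit was NM_006560, which fell from 2.38 to 1.34 FPKM (log2 change -0.79).

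QKI, the quaking protein, recognises ACUAAY words and acts in splicing, RNA stability and circular RNA formation. QKI (chromosome 6, 163835032 to 163999624, plus strand) stood at 12.8 and 14.6 FPKM (normoxia, then hypoxia) with a log2 change of 0.18. NM_006775, which encodes the nuclear QKI-5 form, stood at 5.22 and 6.77 FPKM and went from 40.7% to 46.5% of the gene. NM_206855 stood at 2.26 and 3.10 FPKM, NM_206853 at 4.42 and 3.81, and NM_206854 at 0.929 and 0.872. The share of NM_206853 went from 34.4% to 26.2%, the largest move in this gene, and none of the 4 transcripts reached 1.5-fold.

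PTBP1 and PTBP3 are polypyrimidine tract-binding proteins, which repress exons next to pyrimidine-rich stretches. PTBP1 (chromosome 19, 797075 to 812327, plus strand) stood at 34.6 and 34.5 FPKM, and its log2 change of -0.0036 became 0.07 with median centring, 0.22 with equal sums and 0.14 with quantile normalization. PTBP3 (chromosome 9, 114979996 to 115095944, minus strand) stood at 68.6 and 75.2 FPKM, a log2 change of 0.13. PTBP3 thus had 1.98 times the FPKM of PTBP1 in normoxia and 2.18 times in hypoxia. The neuronal relative PTBP2 stood at 17.0 and 13.5 FPKM, and the 3 PTBP genes summed to 120.2 and 123.2 FPKM. In PTBP3, NM_001163788 held 65.8% of the gene in normoxia and 67.5% in hypoxia. A further PTBP3 transcript, NM_001244898, rose from 4.56 to 7.94 FPKM (log2 change 0.79), and NM_001163790 rose from 0.580 to 0.939 (0.61), whereas NM_005156 stood at 6.996 and 5.09 FPKM.

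The 2 listed PTBP1 transcripts differ by a coding exon that is itself alternatively spliced: NM_002819 encodes the form with the exon and NM_031991 the form without it, which is the weaker repressor on several substrates. NM_031991 stood at 30.7 and 31.9 FPKM and NM_002819 at 3.94 and 2.63. The share of the form with the exon was 11.4% in normoxia and 7.63% in hypoxia, and its log2 change of -0.56 is below 1.5-fold. The annotation places 1 exon of 78 bases (26 codons) that is used by 7 coding PTBP1 transcripts and skipped by 5, at chr19:805492-805569 of GRCh37 on the plus strand. It is shown because it separates the listed forms, with the exon in capitals and 100 bases of intron on each side in lower case (chr19:805392-805669), read 5′ to 3′.
PTBP1 exon: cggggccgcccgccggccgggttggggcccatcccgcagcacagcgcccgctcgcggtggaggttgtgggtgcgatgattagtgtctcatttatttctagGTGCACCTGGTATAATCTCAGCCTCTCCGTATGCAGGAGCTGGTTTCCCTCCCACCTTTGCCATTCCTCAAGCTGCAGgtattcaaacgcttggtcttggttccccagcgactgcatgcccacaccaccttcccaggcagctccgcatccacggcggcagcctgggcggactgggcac
Words known for the regulator families were searched only on the strand of this window that is shown, and overlaps were allowed. The RBFOX word GCATG occurs 1 time, downstream of the exon with 35 bases between, and the ESRP word GGTGG 1 time, upstream with 40 bases between. For MBNL, the word TGCTT was searched, with TGCTG as its first variant, CGCTT as its next and, as the last variant searched, CGCTG. Among these words the match is 1 of the CGCTT kind, downstream of the exon with 9 bases between. They are only part of the YGCY set, and other YGCY words, such as the TGCC in this exon, were not searched or counted. Among 171333 windows of the same length centred on internal coding exons of GENCODE, 21.9% held GCATG, 36.3% GGTGG and 69.6% an MBNL word of those searched. The PTBP words TCTTC and CTCTCT, found in 46.2% of such windows, were not among the letters shown. Other PTBP words were not searched, so this does not show a lack of PTBP sites.

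Close relatives outside the 10 genes were mostly low or not listed. Of 11 paralogs and relatives (further RBFOX, CELF and PTBP genes, and the KHDRBS genes of the same RNA-binding family as QKI), 5 were listed and 3 were above the limit, and 0 of the 3 changed by 1.5-fold. KHDRBS1, which encodes the signalling-linked splicing protein SAM68, stood at 53.0 FPKM in normoxia and 50.7 in hypoxia, and KHDRBS3 at 0.556 and 0.837. CELF2 and CELF5 were below the limit, with mean values of 0.266 and 0.090 FPKM. CELF1 and RBFOX2 were thus the only CELF and RBFOX genes above the limit.

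Of 20 further regulators and cofactors of cell-type splicing, 14 were listed and 11 were above the limit. Of these, 1 had changed, ELAVL1, which encodes the RNA-stabilising protein HuR and fell from 16.2 to 9.21 FPKM (log2 change -0.81). The most abundant was MATR3, a nuclear matrix protein and PTBP1 partner, at 271 FPKM in normoxia and 231 in hypoxia, followed by RBM4 (83.9 and 64.1), which opposes PTBP1 at some exons. Their median log2 change was -0.06, and 4 lay above 0 and 7 below. Of the list, the epithelial regulator RBM47 stood at 16.8 and 16.2 FPKM.

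Genes with exons known to be under the 10 regulators in other systems were examined for their transcript shares. The list held 14 genes, 13 of them listed and above the limit, with a median log2 change of 0.07. By summed FPKM, 0 of the 13 genes fell at least 1.5-fold. Of all genes above the limit, 11.2% were lower and 9.95% higher by at least 1.5-fold. With 13 genes, the count of 0 cannot be told apart from that share. Genes of the list that rose included the insulin receptor INSR, from 1.14 to 2.89 FPKM (log2 change 1.27). The Notch antagonist NUMB also rose, from 11.3 to 17.2 (0.60). Of the 12 with more than 1 listed transcript, 3 had a share that moved by at least 10 points, ENAH, INSR and EXOC7, beside the 14.1% of all such genes given above. The next was FGFR2 with 7.60 points.

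ENAH encodes an actin regulator with a short epithelial exon that ESRP proteins promote. The form with the exon, NM_001008493, stood at 19.6 FPKM in normoxia and 16.2 in hypoxia, and the form without it, NM_018212, at 15.3 and 20.4. The share of the form with the exon was 56.2% in normoxia and 44.2% in hypoxia, so that the more abundant form switched, while the summed FPKM was 34.8 and 36.6. The ratio of the forms went from 1.28 to 0.794. ESRP1 FPKM differed between the conditions by a log2 change of -0.09 only, and whether the share follows any of the regulators was not tested.

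INSR has an alternative exon that MBNL proteins promote and CELF1 represses. The long form with the exon, NM_000208, rose from 0.396 to 1.37 FPKM (log2 change 1.57), and the short form, NM_001079817, rose from 0.745 to 1.52 (0.94). The share of the long form was 34.7% in normoxia and 47.4% in hypoxia, and the ratio of long to short went from 0.531 to 0.901. These FPKM values are low beside those of ENAH.

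The ENAH and INSR exons are shown because they separate the forms whose shares moved most. Both lie on the minus strand of GRCh37 and are coding in the annotation: the ENAH exon has 63 bases (21 codons, chr1:225692693-225692755, window chr1:225692593-225692855) and the INSR exon has 36 bases (12 codons, chr19:7150508-7150543, window chr19:7150408-7150643). Exons are in capitals and 100 bases of intron on each side in lower case, written 5′ to 3′ along the transcript.
ENAH exon: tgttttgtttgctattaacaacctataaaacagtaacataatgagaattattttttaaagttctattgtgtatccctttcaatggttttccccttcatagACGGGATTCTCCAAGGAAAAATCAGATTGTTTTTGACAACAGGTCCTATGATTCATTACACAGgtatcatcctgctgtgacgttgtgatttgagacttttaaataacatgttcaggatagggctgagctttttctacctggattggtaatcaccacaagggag
INSR exon: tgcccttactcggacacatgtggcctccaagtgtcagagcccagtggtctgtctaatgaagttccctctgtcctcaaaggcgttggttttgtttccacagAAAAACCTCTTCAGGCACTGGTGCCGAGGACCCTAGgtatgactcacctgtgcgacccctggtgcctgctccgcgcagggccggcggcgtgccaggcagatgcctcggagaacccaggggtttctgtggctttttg
In the ENAH window, 1 of the MBNL words searched (TGCTG) occurs downstream of the exon with 9 bases between. Upstream, 1 CELF word (TGTTTG, searched with TGTGTG) occurs with 89 bases between. Of 171333 windows of that length, 67.8% held an MBNL word of those searched and 22.2% a CELF word. GGTGG and GCATG, present in 34.8% and 20.8% of such windows, were not among its letters. In the INSR window, the only searched words found were those of PTBP. There, 1 TCTTC starts at position 8 of the exon, counted from 1 at its 5′ end, and 41.5% of windows of that length held a PTBP word. The MBNL words searched are only part of YGCY, and this window does hold other YGCY words, such as TGCC in the exon. Those were not searched or counted. The QKI words ACTAAC and ACTAAT were in none of the 3 windows and in 6.79%, 6.36% and 5.55% of windows of the PTBP1, ENAH and INSR length. For each family only the words named here were searched, so a missing word does not show that the family has no site. These matches describe letters and not binding.

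EXOC7, an exocyst subunit whose splicing differs between epithelial and mesenchymal cells, stood at 14.3 and 13.6 FPKM, and NM_015219 went from 49.2% of the gene in normoxia to 60.2% in hypoxia. CD44, a hyaluronan receptor whose variable exons are kept by ESRP1, stood at 41.9 and 44.8 FPKM. The standard CD44 form without variable exons, NM_001001391, held 2.27% of the gene in normoxia and 1.38% in hypoxia, and NM_001001389 held 60.9% and 64.4%. In FGFR2, the epithelial IIIb form NM_022970 stood at 2.91 and 1.86 FPKM (log2 change -0.62) and held 27.5% and 25.7% of the gene. The gene stood at 10.6 and 7.23 FPKM. The largest share belonged to NM_001144914, with 42.5% and 50.1%, and NM_023029 held 23.5% and 19.7%. Whether NM_001144914 and NM_023029 are IIIb forms was not examined, so the share of all IIIb forms in this line is not known from these values. In PKM, where PTBP proteins repress 1 of a pair of exclusive exons, the M2 form NM_002654 stood at 204 and 208 FPKM. Its share went from 40.5% to 34.7% as NM_001206799 went from 298 to 390 FPKM. Which exon of the pair NM_001206799 holds was not examined, so these shares do not show a switch between the 2 exons. The integrin gene ITGA6 kept its shares, with NM_000210 at 89.1% and 90.2%. The standard CD44 form was thus a small part of the gene in both conditions.

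**Figure D5:**
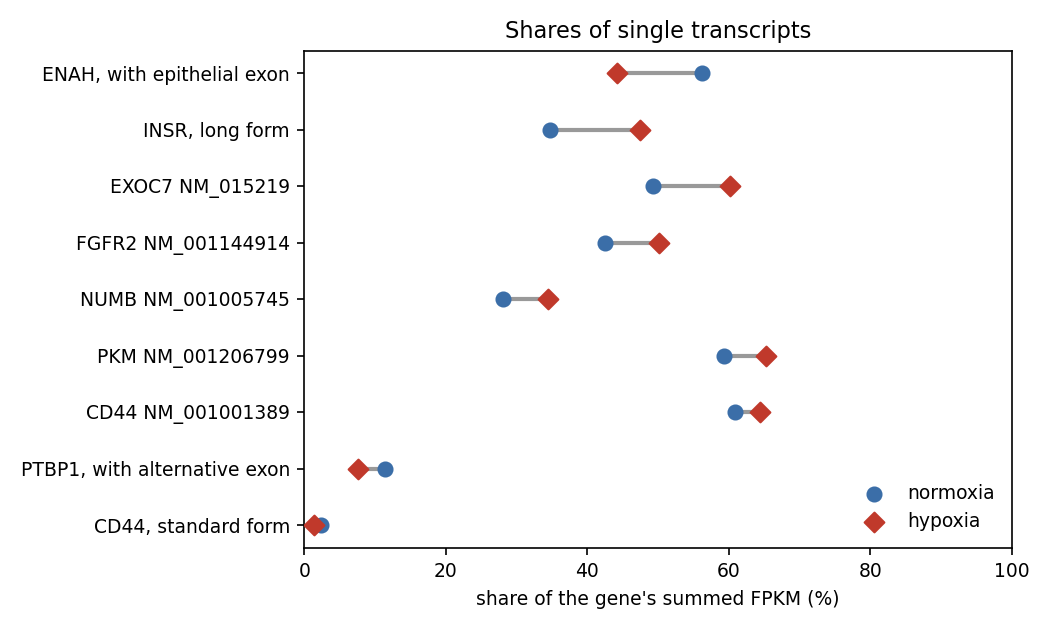
Share of the gene's summed FPKM (%) held by single transcripts in normoxia (circles) and hypoxia (diamonds), 1 pooled value per condition and no error available. ENAH with its epithelial exon moves down from 56.2% to 44.2%, the long INSR form moves up from 34.7% to 47.4%, and the standard CD44 form stays below 3%.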

How the data were processed

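RNA was measured in 4 normoxia and 4 hypoxia replicates of SQ20B. According to the methods and the submitters' processing notes, the authors aligned reads of stranded poly(A)-selected libraries with STAR (version 2.3.0.1) to RefSeq hg19 and ran Cufflinks (version 2.1.1) with standard parameters. The authors' FPKM values were deposited as 1 value per transcript and condition, so the planned limma fit, a paired fit and leaving out replicates could not be run. The deposited fold changes, test statistics, p-values and q-values of the authors' own comparison were not used. In total, 97.9% of 24812 entries were paired with symbols through RefSeq (assembly GRCh38.p14, names only). FPKM was summed per gene, 0.1 was added, and features with a mean of at least 0.5 FPKM were counted at 1.5-fold. Fixed lists gave the other genes, of which those past the limit or most abundant were named, and transcripts by the largest share change; further names were chosen after their values were seen. The values of 1 listed gene are not reported here. The 10 genes and the lists were chosen with earlier results of these data known, and the share limit of 10 points and the sequence words were added later. Assignment of exons to single accessions is background knowledge, since exon structures of RefSeq accessions were not used here. Exons and windows came from GENCODE v44 on GRCh37. The fold and share steps were run on simulated data without noise, which checks the code and not the results. Alternatives covered the pseudocount, the scaling, the FPKM and fold limits, and the transcripts summed. Python 3.11.15 with numpy 2.4.6, pandas 2.3.3 and matplotlib 3.10.9 was used.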

Additional observations from a re-analysis of the deposited data

How the results depend on the processing

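No paired analysis was possible because the deposited table gave 1 value per condition, and leaving out replicates was not run for the same reason. Across 60 results and 345 alternative values, 329 stayed within 1.5-fold of the value given in the report, 16 did not, and 0 results changed sign past the 1.5-fold limit. Many of the 329 could not have moved, so this count does not measure stability. Median centring and equal sums shift each log2 change by less than 1.5-fold. Counting repeated identifiers once, or coding transcripts only, left the values of the 10 genes unchanged. Of the 10 genes, 1 in place of 0 was higher by at least 1.5-fold with median centring, equal sums and quantile normalization (RBFOX2 each time). Of all genes above the limit, 12.4%, 18.6% and 11.6% were higher with these 3 scalings, in that order. With a limit of 1.2-fold, 2 of the 10 genes were higher. NM_001082578 of RBFOX2 moved to -0.997 (log2) with 1 FPKM added, a value set by the amount added. Among the paralogs, 1 was higher with median centring and with equal sums, and at 1.2-fold 1 was higher and 1 lower. At 1.2-fold, 2 of the further regulators were lower, and 0 at 2-fold, and 2 genes with known exons were lower at 1.2-fold. With a share limit of 5 points in place of 10, 3 of the 10 genes and 6 of the genes with known exons were counted, and with 15 points 0 and 0. For the limits of 1.2-fold, 2-fold, 5 points and 15 points, no share of all genes is given beside these counts. Leaving out 1 of the 10 genes at a time moved their median log2 change between -0.09 and -0.0036. The fold, share and added-FPKM settings act by construction, as do median centring and equal sums, which shift all log2 changes in the same direction. For quantile normalization the cause was not tested. Without replicate values or counts, no difference here has an error, and values near the 0.1 FPKM added are the least certain.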
